A study of Homo sapiens with 15 samples.

Results

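The zinc finger genes of chromosome 19 were taken as the protein-coding genes of this chromosome (GENCODE, hg38) whose symbol is ZNF followed by a number and at most 1 letter. The rule used name and position and no measured value. It found 246 of the 60649 genes in the count table, and 232 of them had enough counts to be tested. The samples were cultures of K562, an established human cell line from chronic myeloid leukaemia with the BCR-ABL fusion. Martinostat, an inhibitor of histone deacetylases (HDACs), had been added at 0.15, 0.25, 0.5 or 1 µM for 24 h, and untreated cells were the control. Each of the 5 groups had 3 libraries of poly(A) RNA, labelled as biological replicates of this single line. The labels name no vehicle for the untreated cells. The question of the study was which genes the inhibitor changes at each concentration. Here it was asked of these zinc finger genes and of their clusters along the chromosome.

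Proteins of this family bind DNA through rows of zinc fingers, each holding a zinc ion between a pair of cysteines and a pair of histidines. Most members on chromosome 19 also carry a KRAB box, which binds the corepressor TRIM28. TRIM28 in turn brings in the methyltransferase SETDB1, heterochromatin proteins and an HDAC-containing remodelling complex, so that the bound DNA, often a retrotransposon, is kept silent. The genes arose by repeated tandem duplication and lie in clusters of close relatives, and several clusters carry repressive histone methylation themselves. A KRAB box was found in the translated coding sequence of 212 members and none in 34. The median member had 12 fingers.

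Members were sorted by their start, and a distance over 1.5 Mb between neighbouring starts ended a cluster. This gave 8 clusters of at least 5 members, lettered A to H from the end of the short arm to that of the long arm, and left 9 members outside. Cluster A (5 members) spanned chr19:2819868-2944971 and cluster B (15) chr19:7069703-9793180. Cluster C (25) spanned chr19:11483427-12640098 and cluster D (37), next to the centromere, chr19:19668796-24129968. On the long arm, cluster E (31) spanned chr19:34677639-37817300 and cluster F (26) chr19:42068477-45076478. Clusters G (39) and H (59) spanned chr19:51571283-53580269 and chr19:55476617-58481230. Clusters B, E, F and H also held 60, 66, 62 and 50 other protein-coding genes, and cluster D held 2.

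Many members shared a short sequence near their transcription starts. RefSeq promoters (GRCh38.p14, 250 bases before to 50 after the start) were matched for 216 members and searched on both strands for CCGGAAG, a core bound by transcription factors of the ETS family. It was present in 96 of the 216 (44.4%), against 10.3% of 35116 promoters of all genes, 28.6% of those of ZNF genes on other chromosomes and 13.4% of those of the other protein-coding genes of chromosome 19. The share was 72.4% in cluster D (21 of 29), 62.5% in G (20 of 32) and 61.1% in H (33 of 54), 8.33% in C (2 of 24), and 0 of 5 in A. In cluster D, 19 of the promoters held it within the 30 bases before the start. The next lines show, on the gene's strand, the 60 bases before the start of 4 members of cluster D and, for contrast, of ZNF175 in cluster G, with the core or its reverse complement in capitals. For ZNF568 of cluster E they show the 40 bases between its start and that of its head-to-head neighbour ZNF829.
ZNF91 (chr19:23395472-23395531, minus strand): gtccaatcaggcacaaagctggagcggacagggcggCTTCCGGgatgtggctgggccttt
ZNF208 (chr19:22010944-22011003, minus strand): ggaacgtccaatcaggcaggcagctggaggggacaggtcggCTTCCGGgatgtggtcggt
ZNF431 (chr19:21141980-21142039, plus strand): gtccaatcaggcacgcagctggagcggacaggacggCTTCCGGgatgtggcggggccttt
ZNF254 (chr19:24087127-24087186, plus strand): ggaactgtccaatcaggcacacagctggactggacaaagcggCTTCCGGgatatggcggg
ZNF175 (chr19:51571223-51571282, plus strand): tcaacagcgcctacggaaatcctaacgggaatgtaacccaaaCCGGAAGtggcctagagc
ZNF568 (chr19:36916292-36916331, plus strand): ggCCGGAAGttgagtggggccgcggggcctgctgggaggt

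The 4 genes of cluster D have the core on the opposite strand, 18 to 24 bases before the start, in surroundings that are nearly alike. The ZNF254 entry of RefSeq lies 53782 bases inside the gene as annotated by GENCODE. The core before ZNF568 (chr19:36916294-36916300) lies on the opposite strand of ZNF829, whose start is on the other side of it. As the values given further on show, these nearly identical starts belonged to genes that rose (ZNF208), fell (ZNF254) or were not called (ZNF91, ZNF431). Tested members with the core counted 29 higher and 26 lower of 93 at 1 µM, and those without it 38 higher and 23 lower of 115, with 38.8% of all tested genes called higher and 27.5% lower. The GC box GGGCGG was found in 67.6% of the members' promoters and 45% of all promoters, and TATAAA in 2.31% against 11.5%.

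Libraries held 23755510 to 32805574 counts. Levels are given as CPM, read counts relative to the library size after TMM scaling (edgeR's trimmed mean of M values), whose factors were 0.784 to 0.828 in the untreated libraries and at most 1.28 in the treated ones. The third replicates at 0.25 and 0.5 µM stood apart on the third principal component (4.47% of the variance, at 70.1 and 75.4, with the other 13 libraries at 16.0 or lower), and members were often highest in them. Of the 232 tested members, the third replicate was the highest of 3 in 48.3% at 0.25 µM and 54.3% at 0.5 µM, against 35% and 39.9% of all tested genes. Results at these doses are therefore also given without these libraries. Erythroid markers of K562 cells were present before treatment (GATA1 at 328 CPM, TFRC at 1228 CPM) and GATA1 stood at 18.9 CPM at 1 µM, whereas the lymphocyte marker MS4A1 had 0 counts in untreated cells. COL1A1, a fibroblast marker, rose from 4.36 to 398 CPM. These changes run alongside all results below, and their part in them was not tested. In libraries of a whole culture, fewer cells with a transcript and less of it per cell cannot be told apart.

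In untreated cells 180 members reached 1 CPM and 66 did not. Per kilobase of exon, the median level was 0.869 CPM, and 16 members exceeded 10 CPM per kilobase. ZNF787 had the highest level (48.2 CPM per kilobase), followed by ZNF146 (41.7) and ZNF581 (33.4). The 10 members with the most CPM carried 26.6% of the CPM summed over all members. By cluster, the median untreated level was lowest in C (2.30 CPM), D (2.87 CPM) and F (3.15 CPM) and highest in B (19.8 CPM) and G (14.9 CPM).

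Each dose was compared with untreated cells by edgeR's quasi-likelihood test over 23711 genes, and calls required an adjusted p (Benjamini-Hochberg) under 0.05. At 0.15 µM, 34 members were called higher and 61 lower (41.0% of 232, with 51.2% of all tested genes called), at 0.25 µM 63 and 63 (54.3%, with 62.3% of all), at 0.5 µM 86 and 54 (60.3%, with 66.9%) and at 1 µM 78 and 56 (57.8%, with 66.2%). The members' share of calls was below that of all genes at each dose. The direction of the calls depended on the scaling. Going up the doses, the members split 54 higher to 16 lower, 102 to 20, 126 to 33 and 111 to 33 when libraries were scaled by their totals. They split 49 to 30, 93 to 30, 131 to 32 and 123 to 35 when TMM used only genes averaging 10 CPM or more. All tested genes moved in the same way, from 7557 higher and 4591 lower at 0.15 µM to 9582 and 2118 with library totals. The median over all tested genes at 1 µM was a log2 fold change of 0.32 with TMM and 0.67 with library totals. Medians of the members and clusters are therefore given relative to the median of all tested genes, a difference the scalings hardly moved (the members lay 0.405 below at 0.15 µM with TMM and 0.415 below with library totals).

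On that scale the members lay below all tested genes at the lower doses and close to them at the higher ones. The members are all protein-coding, and the tested genes are not. Going up the doses, the members' median log2 fold changes were −0.12, −0.02, 0.32 and 0.26. Those of the 15640 tested protein-coding genes were 0.10, 0.07, 0.15 and 0.14. Against these the members lay below at the lower doses and above at the higher ones. On the log2 scale the members' median was 0.41 below that of all tested genes at the lowest dose, 0.33 below at 0.25 µM, 0.03 below at 0.5 µM and 0.05 below at the highest dose, where it was 0.04 to 0.14 below without single libraries (0.14 without untreated replicate 1, 0.10 without replicate 2 at 0.15 µM or replicate 3 at 1 µM, and 0.04 without replicate 2 at 1 µM). At 1 µM it was instead 0.33 above with genes limited to at least 10 counts in every library, and 0.083 above in a fit of these 2 groups alone. Without the third replicates at 0.25 and 0.5 µM, the calls going up the doses were 43 higher and 69 lower, 59 and 72, 83 and 57, and 98 and 60. The 4 comparisons share the untreated libraries and are not independent of each other.

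Between the lowest and the highest dose, 77 members were higher at 1 µM and 29 lower (45.7%, with 44.5% of all tested genes called). The untreated libraries entered this comparison only through the shared filter, scaling and estimate of the spread. All tested genes split nearly evenly here (5090 higher, 5472 lower). The members' median was 0.38 above that of all tested genes. The calls numbered 92 higher and 33 lower without the third replicates at 0.25 and 0.5 µM, and 67 and 28 with library totals. Of the single steps, that from 0.25 to 0.5 µM held the most calls, with 42 members higher and 14 lower, against 30.4% of all tested genes called in either direction. With library totals this step split 22 higher to 19 lower. The step from 0.15 to 0.25 µM held 6 higher and 5 lower (4.96% and 7.32% of all tested genes, 12.3% together), or 17 and 4 with the scaling of DESeq2. This step rests on single libraries: 4 members were called without the third replicate of 0.15 µM or of 0.25 µM, 6 without the first of 0.15 µM, 18 without the first of 0.25 µM and 30 without the third of 0.5 µM. From 0.5 to 1 µM edgeR called no member and no gene at all (0% called), DESeq2 called none, and 372 genes but no member had an unadjusted p under 0.05.

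**Figure D1:**
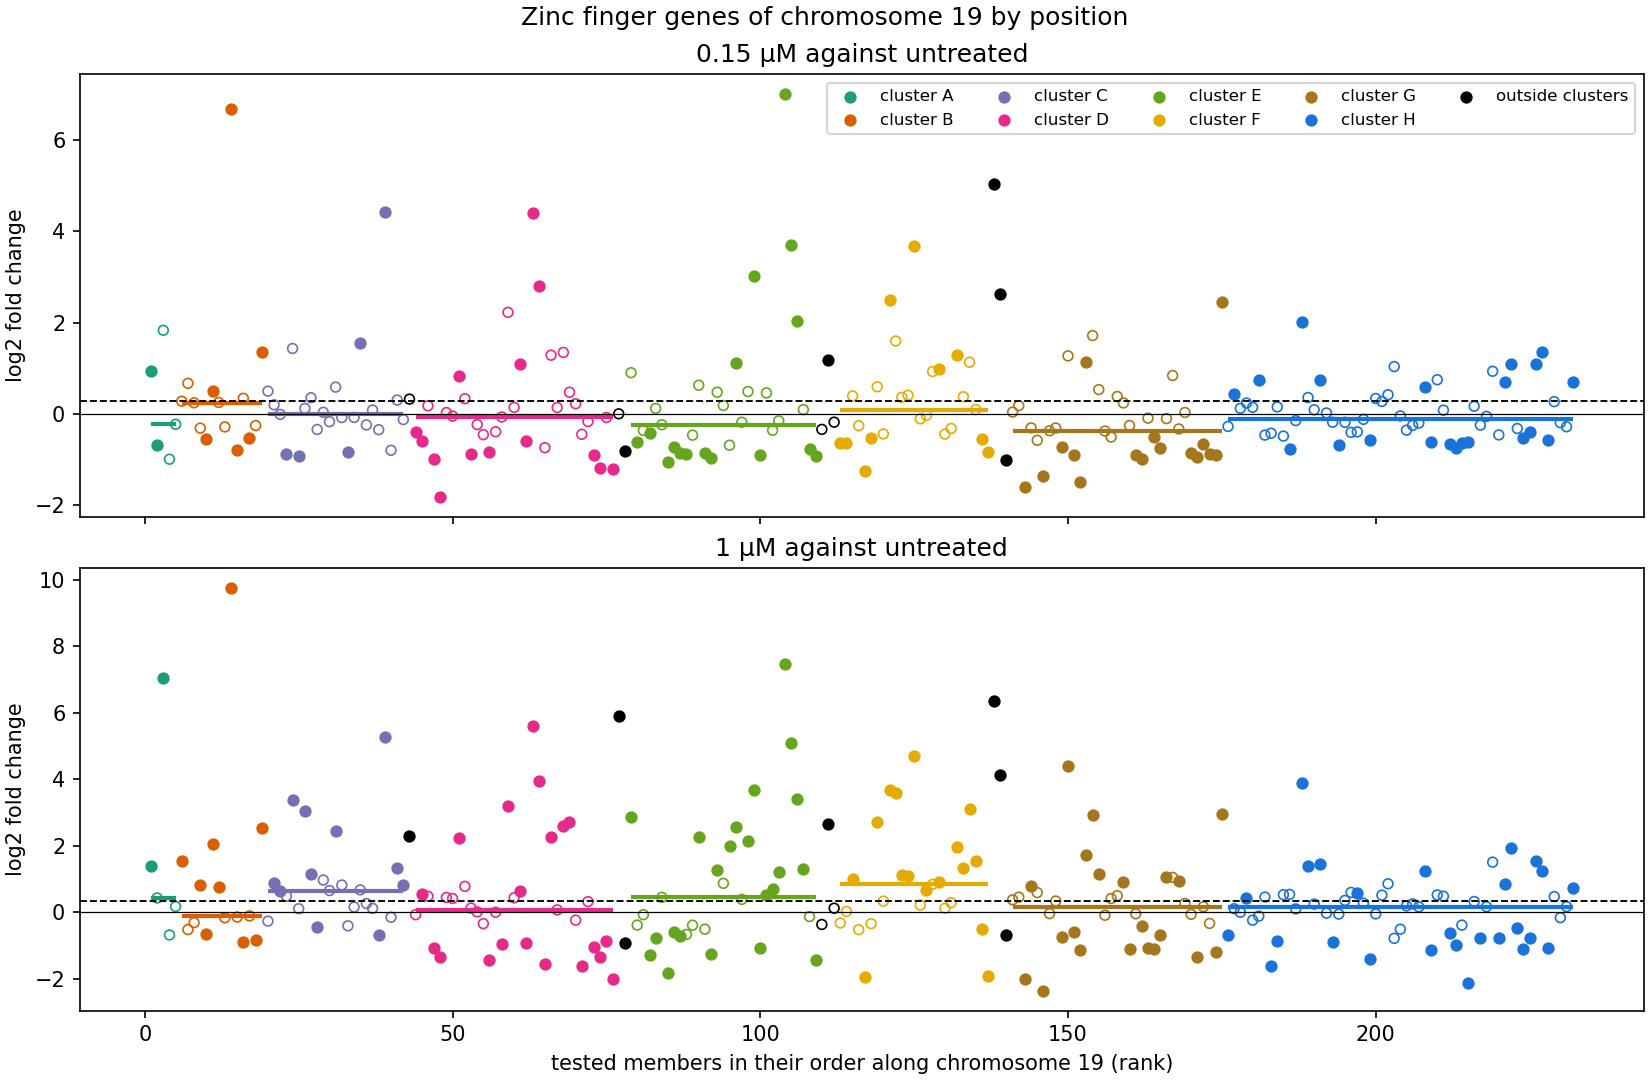
Log2 fold change of the 232 tested members at 0.15 µM and 1 µM against untreated cells, in their order along chromosome 19 (x axis, rank), coloured by cluster. Filled points passed the adjusted p of 0.05, open points did not, the coloured lines are the cluster medians, and the dashed line is the median of all tested genes (0.28 and 0.32). At 0.15 µM 61 filled points lie below 0 and 34 above, at 1 µM 56 and 78, and members called in both directions occur at 1 µM in every cluster except A.

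Whether the level summed over all 246 members fell or rose depended on the scaling. With TMM it was 3421 ± 47.4 CPM in untreated cells (mean ± SD, n = 3) and, going up the doses, 2710 ± 47.7, 2606 ± 76.6, 2812 ± 142 and 2784 ± 41.0 CPM, with every treated library below every untreated one. With library totals it was 2739 ± 54.9 CPM in untreated cells and 2784 ± 143, 3011 ± 392, 2945 ± 598 and 2847 ± 51.6 CPM going up the doses. On that scale the 1 µM libraries, at 2808 to 2905 CPM, all lay above the untreated ones, at 2683 to 2793 CPM. More members were detected at 1 µM on both scales. Members at 1 CPM or more numbered 179, 182 and 175 in the untreated libraries and 211, 207 and 210 at 1 µM with TMM, or 170 to 176 and 207 to 213 with library totals. From untreated cells to 1 µM, 33 members crossed 1 CPM upwards and 2, ZNF257 and ZNF649, crossed it downwards.

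Members fell into few dose patterns. Of the 232, 29 were higher at all 4 doses (12.5%, against 24.6% of all tested genes), 34 lower at all 4 (14.7% against 15.1%) and 52 called at none (22.4% against 20.1%). Another 46 were not called at 0.15 µM and higher at 1 µM (19.8% against 12.3%), and 18 were not called at 0.15 µM and lower at 1 µM (7.76% against 10.3%). A passing decrease was called in 14, which were lower at 0.15 µM, called higher from 0.15 to 1 µM and not called against untreated cells at 1 µM (6.03% against 1.94%). These 14 (ZNF555, ZNF426, ZNF561, ZNF441, ZNF440, ZNF66, ZNF607, ZNF526, ZNF28, ZNF845, ZNF765, ZNF761, ZNF583 and ZNF543) were named after their values were seen. All these patterns are counted with TMM only. With library totals 16 members instead of 61 were called lower at 0.15 µM, and the patterns were not counted again on that scale. ZNF765 measured 29.3, 29.0 and 27.0 CPM untreated, 18.3, 19.6 and 16.1 CPM at 0.15 µM and 31.3, 32.2 and 31.9 CPM at 1 µM. ZNF28 measured 41.9, 42.1 and 39.1 CPM untreated, 24.4, 26.3 and 15.1 CPM at 0.15 µM and 40.2, 37.0 and 41.4 CPM at 1 µM. In both, all libraries at 0.15 µM lay below those of untreated cells and of 1 µM.

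ZNF14 in cluster D was the single member called lower at 0.15 µM and higher at 1 µM, a pattern of 0.536% of all tested genes. It measured 5.07, 5.99 and 4.85 CPM untreated, 4.78, 2.97 and 2.86 CPM at 0.15 µM and 8.94, 6.91 and 7.46 CPM at 1 µM. The 0.15 µM libraries were all below the untreated ones, and the 1 µM libraries all above. Its log2 fold changes (here and below ± SE) were −0.59 ± 0.22 at 0.15 µM (edgeR adjusted p = 0.034) and 0.55 ± 0.22 at 1 µM (edgeR adjusted p = 0.032). The call at 1 µM was lost without untreated replicate 1 (0.52) or 3 (0.49), without 1 µM replicate 1 (0.44) or 3 (0.58), and with no filter on low counts. Its call at 0.15 µM was not checked with other scalings. No member was higher at 0.15 µM and lower at 1 µM, against 339 of all tested genes (1.43%).

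The clusters differed in where their members stood at 1 µM. Relative to all tested genes, the median log2 fold change was 0.52 higher in F, 0.33 higher in C, 0.12 higher in E and 0.11 higher in A, and it was 0.16 lower in both G and H, 0.25 lower in D and 0.45 lower in B. Calls split 13 higher to 3 lower in F (25 tested), 9 to 2 in C (23), 14 to 8 in E (31) and 2 to 0 in A (5). They split 9 to 12 in G (35), 11 to 15 in H (57), 9 to 11 in D (33) and 6 to 3 in B (14), with 38.8% of all tested genes called higher and 27.5% lower. At 0.15 µM every cluster's median was below that of all tested genes, from 0.04 below in B to 0.65 below in G, where 14 members were lower and 2 higher. Between 0.15 and 1 µM the calls were mostly higher in E (11 to 3), F (11 to 2), G (13 to 4) and C (9 to 2), and split 5 to 5 in D, 8 to 4 in B and 13 to 9 in H. Several of these medians rested on single libraries. Without untreated replicate 1 they were 0.07 lower in A, 0.09 lower in E, 0.19 higher in C and 0.34 higher in F. Without untreated replicate 2 they were 0.21 higher in A, 0.26 higher in E and 0.09 lower in G, and without untreated replicate 3 0.04 higher in A, 0.01 higher in E and 0.08 higher in C. Leaving out 1 µM replicate 1 gave 0.04 higher in A, 0.02 lower in E and 0.18 higher in C, and leaving out 1 µM replicate 3 gave 0.05 higher in A and 0.21 higher in E. Members of a cluster share ancestry and partly sequence, and the order of the clusters was not tested. Going from A to H, median untreated levels were 4.48, 19.8, 2.30, 2.87, 4.0, 3.15, 14.9 and 8.70 CPM. Over all tested members the change at 1 µM ran with the untreated level (Spearman's rho −0.739), and the part of level in this order was not tested. The medians of G and H, both 0.16, were near the 0.14 of all tested protein-coding genes. With tests limited to genes of at least 10 counts in every library, the order was different (B 0.07 above all tested genes, D 0.14 above, G 0.17 above, H 0.38 above and E 0.17 below).

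Taken per library, as the median log2 ratio of (CPM + 0.5) to the mean of the untreated libraries minus the same over all tested genes, F and C were again the highest clusters at 1 µM and B the lowest. The value was 0.38 ± 0.08 in F (SD, n = 3), 0.27 ± 0.09 in C, 0.13 ± 0.18 in E, −0.12 ± 0.06 in D and −0.29 ± 0.05 in B. In F the 0.5 µM libraries ran from 0.03 to 0.82, the highest being the third replicate. In D the third replicate at 0.15 µM stood at −0.58 and its partners at −0.10 and −0.13.

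**Figure D2:**
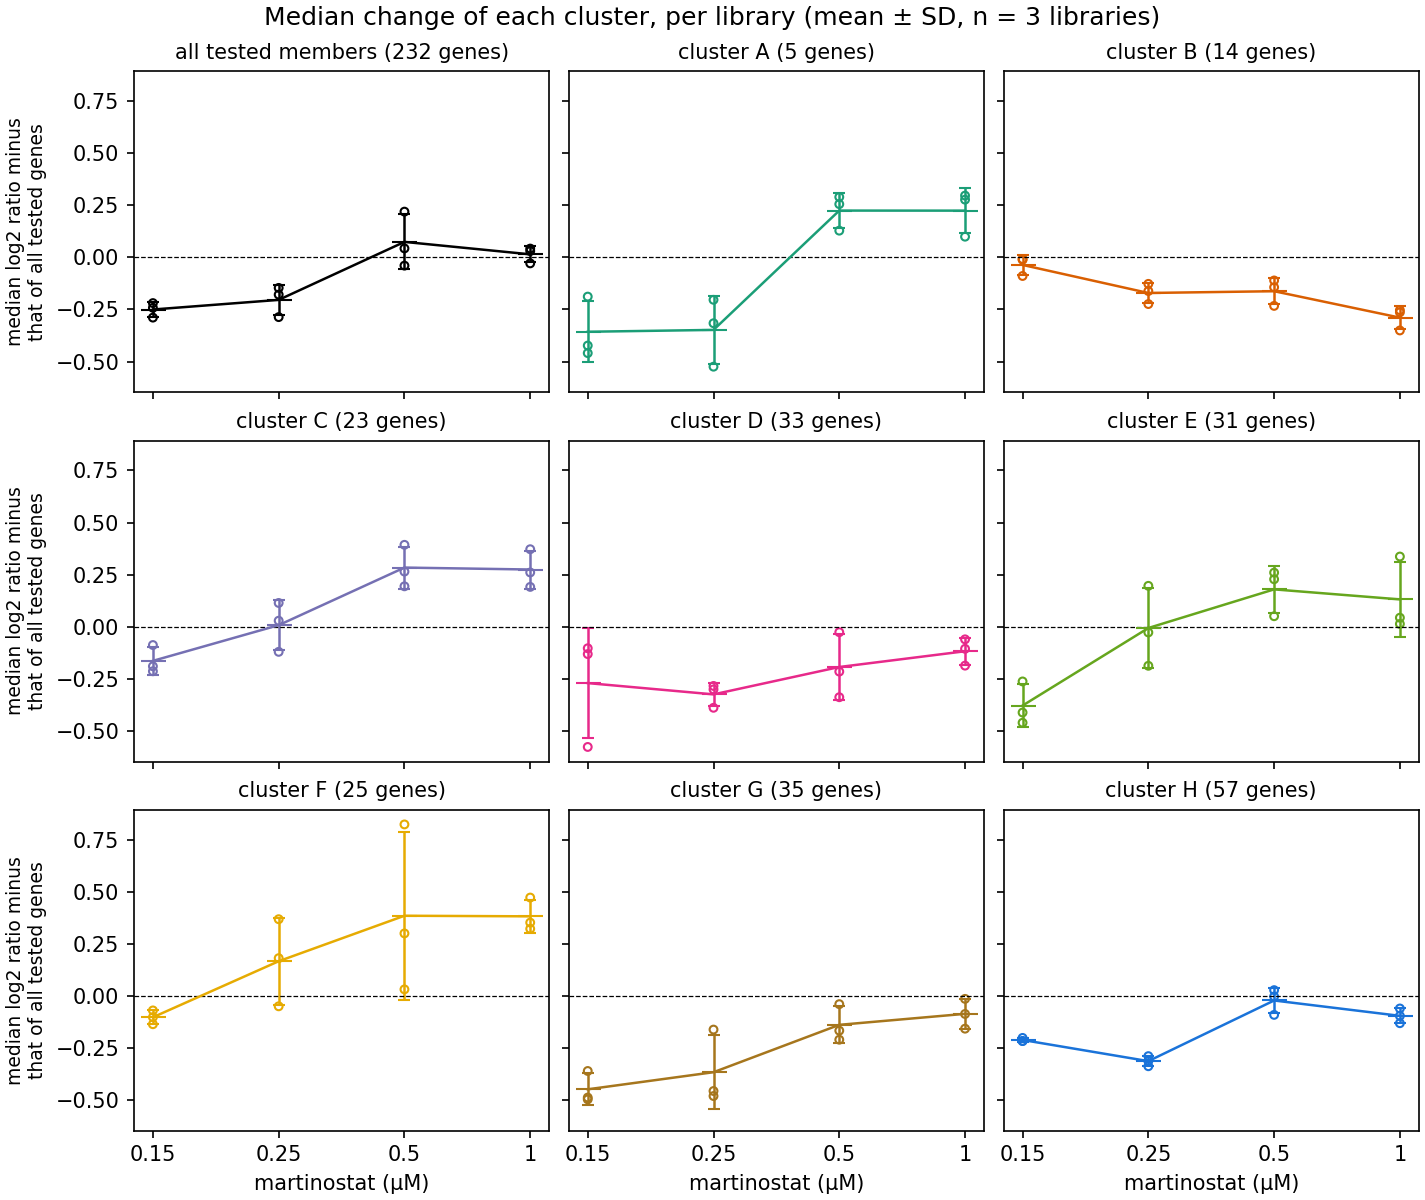
Median log2 ratio to untreated cells of each cluster's tested members, minus that of all tested genes, in each library (points) with the mean ± SD of 3 libraries, by martinostat concentration in µM. The dashed line at 0 is the level of all tested genes. Clusters C and F move from below 0 at 0.15 µM to 0.27 and 0.38 at 1 µM, B moves from −0.04 to −0.29, and G rises from −0.45 to −0.09.

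Cluster F lies on the long arm and, beside ZNF genes, holds many other genes. Among its called members with a mean of at least 2 CPM and no overlap of libraries, ZNF221 had the largest rise and measured 0.65, 0.31 and 0.47 CPM untreated, 2.99, 2.61 and 2.48 CPM at 0.15 µM and 6.67, 5.25 and 6.28 CPM at 1 µM. Its libraries rose without overlap at each of these doses, and the log2 fold change at 1 µM was 3.66 ± 0.30 (edgeR adjusted p = 2.8e-09). ZNF221 opens a row of 5 tested members that were all higher at 1 µM (ZNF221, ZNF155, ZNF230, ZNF222 and ZNF284, chr19:43951223-44089613), with the untested ZNF223 before ZNF284, and a further row of 4 (ZNF233, ZNF112, ZNF285 and ZNF229) follows at chr19:44259880-44448578. ZNF284, which had the largest log2 fold change of the cluster, measured 0, 0.12 and 0.08 CPM untreated and 1.42, 1.90 and 2.06 CPM at 1 µM (log2 fold change 4.68 ± 0.61, edgeR adjusted p = 1.7e-06), with 44% of its exon bases under exons of other genes. Within the same cluster ZNF428 measured 39.2, 38.5 and 36.1 CPM untreated and 9.19, 11.1 and 9.41 CPM at 1 µM (−1.94 ± 0.19, edgeR adjusted p = 5.4e-08), with 32% of its exon bases under exons on the opposite strand. ZNF296 measured 19.6, 19.6 and 21.4 CPM untreated and 6.60, 3.87 and 5.44 CPM at 1 µM (−1.93 ± 0.29, edgeR adjusted p = 1.1e-05). Neither ZNF428 nor ZNF296 has a KRAB box, and both lie outside the rows of risers. ZNF574, the cluster's most abundant member, was called lower at 0.15 µM (−0.64 ± 0.15, edgeR adjusted p = 0.0016) and not at 1 µM (−0.33 ± 0.15, edgeR adjusted p = 0.06), where it was 0.02 with library totals and was called without the third replicate at 0.5 µM (−0.33, edgeR adjusted p = 0.036).

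In cluster C, 9 of 23 tested members were higher at 1 µM (39.1%, with 38.8% of all tested genes), 2 were lower (8.70%, with 27.5%) and 12 were not called. ZNF791, its most abundant member, measured 25.4, 23.5 and 24.8 CPM untreated, 23.9, 18.9 and 24.7 CPM at 0.15 µM and 39.2, 45.3 and 44.3 CPM at 1 µM (0.81 ± 0.18, edgeR adjusted p = 5.3e-04). It was above untreated cells at 1 µM and overlapped with them at 0.15 µM. ZNF490 went from 3.15 ± 0.18 to 7.90 ± 1.75 CPM at 1 µM (SD, n = 3, log2 fold change 1.33 ± 0.24, edgeR adjusted p = 7.1e-05), with 51% of its exon bases under other genes. ZNF443, the lowest of the cluster, went from 4.78 ± 0.83 to 2.94 ± 0.90 CPM (−0.70 ± 0.27, edgeR adjusted p = 0.026). Its group ranges overlap, 36.1% of its stretches of 50 bases occur in other genes, and the call was lost without untreated replicate 2 (−0.66) or 3 (−0.60), without 1 µM replicate 1 (−0.57) or 2 (−0.59), and with library totals (−0.35).

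In cluster E the largest rise among members with a mean of at least 1 CPM was in ZNF540. It measured 0.57, 0.19 and 0.47 CPM untreated, 2.18, 1.55 and 1.34 CPM at 0.15 µM and 4.97, 3.66 and 4.36 CPM at 1 µM (3.39 ± 0.40, edgeR adjusted p = 4.6e-07). ZNF540 belongs to the longest row of risers, 7 neighbours at chr19:37312837-37614179 (ZNF875, ZNF527, ZNF569, ZNF570, ZNF793, ZNF540 and ZNF571). Of these, ZNF570 had 0 counts in all untreated libraries and 0.76 CPM on average at 1 µM, 19.2 times the level of 3 counts over the 3 untreated libraries. Nearer the middle of the cluster, ZNF146, ZNF566 and ZNF260 were a row of 3 lower neighbours (chr19:36214602-36528271). ZNF146 encodes a protein made almost only of zinc fingers, without a KRAB box, and was among the most abundant members. It measured 157, 190 and 170 CPM untreated, 84.4, 90.5 and 74.5 CPM at 0.15 µM and 50.3, 47.2 and 49.1 CPM at 1 µM, with no overlap of the groups (−1.82 ± 0.14 at 1 µM, edgeR adjusted p = 2e-09). The summed level of cluster E went from 380 ± 25.4 CPM untreated to 219 ± 9.68 CPM at 1 µM, or from 304 ± 17.5 to 224 ± 10.5 CPM with library totals (SD, n = 3). Most of this fall lay in ZNF146 alone, and 14 members of the cluster were called higher and 8 lower.

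Cluster D holds ZNF208, ZNF729 and ZNF91, the 3 members with the most fingers (36, 34 and 31). ZNF208 measured 0.41, 0.31 and 0 CPM untreated, 2.04, 2.08 and 0.96 CPM at 0.15 µM and 2.66, 4.73 and 3.73 CPM at 1 µM (3.94 ± 0.90, edgeR adjusted p = 0.0014). All treated libraries were above the untreated ones, and the third replicates at 0.25 and 0.5 µM, at 8.79 and 9.95 CPM, were far above their partners at 1.85 to 3.51 CPM. ZNF254, from the same region, measured 27.9, 34.8 and 28.6 CPM untreated and 7.70, 6.98 and 7.71 CPM at 1 µM (−2.03 ± 0.24, edgeR adjusted p = 4.7e-07), and it ends a row of 4 lower neighbours (ZNF675, ZNF681, ZNF726 and ZNF254). ZNF91 is known to silence SVA retrotransposons and ZNF93 to silence young LINE elements. ZNF91 measured 8.18, 8.23 and 8.65 CPM untreated and 10.0, 11.8 and 9.31 CPM at 1 µM, with a log2 fold change of 0.31 ± 0.24 (edgeR adjusted p = 0.25), which was called when TMM used only genes averaging 10 CPM or more (0.69, edgeR adjusted p = 0.025). ZNF93 measured 2.49, 3.63 and 3.29 CPM untreated, 0.56, 1.34 and 0.76 CPM at 0.15 µM and 1.42, 1.31 and 0.98 CPM at 1 µM, below untreated cells in every one of these libraries (−1.34 ± 0.38 at 1 µM, edgeR adjusted p = 0.0043). ZNF431, the most abundant member of the cluster, stayed near its untreated level of 45.5 ± 3.20 CPM at 1 µM (45.3 ± 3.01 CPM, SD, n = 3), with a log2 fold change of −0.01 ± 0.25 whose sign turned with the scaling (0.35 with library totals).

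In cluster G, 11 of the 22 members over 10 CPM were lower at 1 µM (50%) and 3 higher, a share of lower calls close to the 49.1% of protein-coding genes over 10 CPM. ZNF614 measured 52.6, 67.5 and 65.2 CPM untreated, 24.5, 31.1 and 16.7 CPM at 0.15 µM and 13.2, 9.98 and 12.7 CPM at 1 µM (−2.37 ± 0.21, edgeR adjusted p = 1.3e-08), the largest fall among members with a mean of at least 2 CPM. A row of 4 lower neighbours (ZNF468, ZNF320, ZNF888 and ZNF816) lay at chr19:52838010-52962911 and a row of 3 higher ones (ZNF528, ZNF534 and ZNF578) at chr19:52397849-52516882. ZNF331, an imprinted gene, measured 0.49, 0.35 and 0.24 CPM untreated, 1.48, 1.84 and 2.58 CPM at 0.15 µM and 2.48, 2.42 and 3.49 CPM at 1 µM (2.96 ± 0.67, edgeR adjusted p = 9.3e-04). Every treated library exceeded the untreated ones, and the third replicate at 0.5 µM reached 8.70 CPM against 2.03 and 1.26 CPM. ZNF350, a partner of the DNA repair protein BRCA1, went from 2.61 ± 0.49 CPM at 0.15 µM to 5.85 ± 0.26 CPM at 1 µM (SD, n = 3, log2 fold change 1.17 ± 0.29 between these doses, edgeR adjusted p = 0.0027) and was called at neither dose against untreated cells. It was called at 1 µM (0.59) without untreated replicate 2 (1.01, edgeR adjusted p = 0.0046), without both libraries that stood apart (0.63), by DESeq2 (0.65) and with library totals (0.95). ZNF175 measured 33.5 ± 0.66 CPM untreated and 43.2 ± 2.30 CPM at 1 µM (0.37 ± 0.20, edgeR adjusted p = 0.11), a difference that was called without the third replicate at 0.5 µM (edgeR adjusted p = 0.034) and with library totals (0.72).

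Cluster H, the largest, reaches to the end of the long arm. ZNF471 measured 0.33, 0.27 and 0.31 CPM untreated, 1.51, 1.27 and 0.93 CPM at 0.15 µM and 4.33, 3.73 and 5.54 CPM at 1 µM (3.88 ± 0.45, edgeR adjusted p = 3.6e-07), each of these groups lying above the one before it. ZNF587B measured 47.4, 38.6 and 37.8 CPM untreated, 27.1, 27.2 and 26.2 CPM at 0.15 µM and 9.01, 9.29 and 10.1 CPM at 1 µM, each of these groups below the one before it (−2.12 ± 0.18, edgeR adjusted p = 5.6e-09). ZNF787, the member with the highest level per kilobase in untreated cells, went from 178 ± 14.5 to 58.2 ± 15.2 CPM at 1 µM (SD, n = 3, −1.61 ± 0.33, edgeR adjusted p = 6e-04). ZNF274, which binds the ends of other ZNF genes and brings SETDB1 to them, measured 42.4, 55.0 and 47.6 CPM untreated and 36.1, 37.7 and 30.4 CPM at 1 µM (−0.48 ± 0.17, edgeR adjusted p = 0.018). This call was lost without untreated replicate 2 (−0.37), without 1 µM replicate 3 (−0.39) and with library totals (−0.12). ZNF274 stands in a row of 3 lower neighbours with ZNF544 and ZNF8.

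Clusters A and B lie nearest the end of the short arm. In A, ZNF554 went from 4.48 ± 0.15 to 11.7 ± 2.66 CPM at 1 µM (SD, n = 3, 1.38 ± 0.25, edgeR adjusted p = 8.3e-05), and ZNF77 from 8.00 ± 0.77 to 8.98 ± 0.35 CPM (0.17 ± 0.18, edgeR adjusted p = 0.41, or 0.52 and called with library totals). In B, ZNF560 had 0 counts in all untreated libraries, 0.21, 0.64 and 0.48 CPM at 0.15 µM and 3.23, 4.90 and 3.07 CPM at 1 µM (edgeR adjusted p = 7.3e-09). The means were 11.2 times the level of 3 counts over the untreated libraries at 0.15 µM and 94.5 times at 1 µM. ZNF317, the most abundant member of B, went from 92.2 ± 8.88 to 57.9 ± 7.66 CPM (−0.67 ± 0.14, edgeR adjusted p = 4.7e-04), a call lost with library totals (−0.32). ZNF121 measured 102, 63.8 and 46.1 CPM in untreated cells, a wide spread, and 38.8, 38.6 and 35.9 CPM at 1 µM (−0.90 ± 0.23, edgeR adjusted p = 0.0025), and this call too was lost with library totals (−0.56).

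Outside the clusters, ZNF541, a gene of male germ cells, had 3 counts in the untreated libraries together and measured 0.91, 1.62 and 1.79 CPM at 0.15 µM and 3.44, 3.73 and 3.63 CPM at 1 µM (edgeR adjusted p = 4e-09). The ratio of 1 µM to untreated cells was 89.3, with a 95% counting interval of 30.3 to 435. ZNF536, a large neural gene, had 0 counts in the untreated and the 0.15 µM libraries and 0.39, 0 and 0.38 CPM at 1 µM (edgeR adjusted p = 0.013). The mean at 1 µM was 6.53 times the level of 3 counts over the untreated libraries, but 1 library at 1 µM had 0 counts too. ZNF473, which takes part in processing the ends of histone mRNAs, measured 46.5, 53.7 and 51.9 CPM untreated, 21.5, 25.7 and 27.9 CPM at 0.15 µM and 33.8, 26.1 and 33.4 CPM at 1 µM (−0.70 ± 0.15, edgeR adjusted p = 4.7e-04). Its treated libraries were all below the untreated ones.

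**Figure D3:**
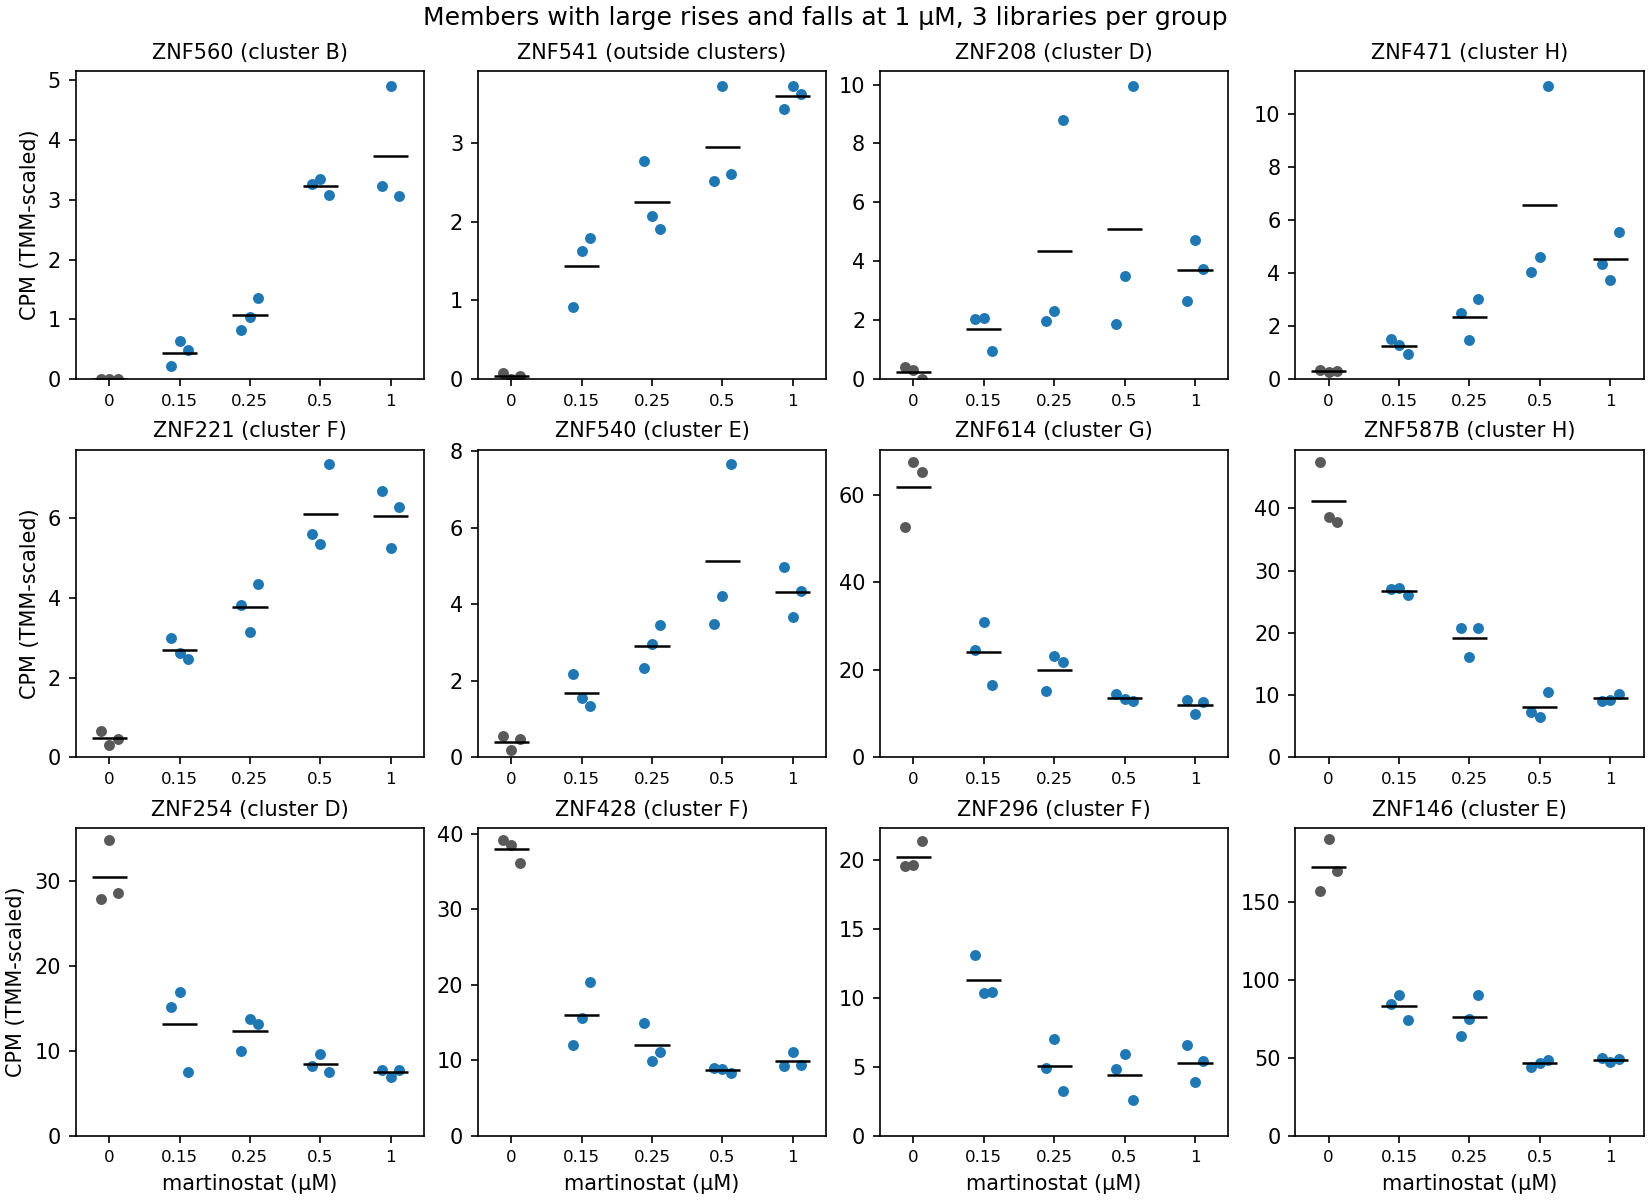
Level of 12 members in each of the 15 libraries (points, TMM-scaled CPM on linear axes from 0, grey for untreated cells) with the group mean (line), by martinostat concentration in µM. ZNF560, ZNF541, ZNF208, ZNF471, ZNF221 and ZNF540 rise from under 1 CPM to between 2.66 and 6.67 CPM at 1 µM, and ZNF614, ZNF587B, ZNF254, ZNF428, ZNF296 and ZNF146 fall to at most 50.3 CPM. The single high points of ZNF208, ZNF471 and ZNF540 are the third replicates.

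Rows of like-called neighbours occurred, but over all clusters the values of neighbours were about as far apart as those of other pairs in a cluster. The median absolute difference in log2 fold change at 1 µM was 1.15 between 215 pairs of neighbours within clusters, 1.11 between all 3838 pairs within clusters and 1.27 between all 26796 pairs of tested members. The rows were listed after the values were seen. In 4 places a pair of members lies head to head with starts under 1 kb apart or overlapping. ZNF829 and ZNF568, whose shared start region is printed above, both rose, by 1.99 ± 0.49 (edgeR adjusted p = 0.0016) and 2.54 ± 0.40 (edgeR adjusted p = 1.5e-05) on the log2 scale at 1 µM. ZNF829 measured 0.08, 0.58 and 0.35 CPM untreated, 0.21, 0.14 and 0.28 CPM at 0.15 µM and 1.19, 1.15 and 0.80 CPM at 0.25 µM, and ZNF568 0.25, 0.31 and 0.20 CPM, 0.67, 0.49 and 0.48 CPM and 0.92, 0.57 and 1.15 CPM. ZNF568 was called higher at 0.15 µM and ZNF829 was not. The pair ZNF585B and ZNF383 went apart at 1 µM. ZNF585B had 2 counts over the untreated libraries and was called higher (ratio 14.8, 95% counting interval 3.78 to 127), and ZNF383 fell from 6.13, 6.84 and 5.95 CPM to 3.27, 2.59 and 3.10 CPM (−1.08 ± 0.28, edgeR adjusted p = 0.0021). Of ZNF790 and ZNF345 the former was called higher (1.26 ± 0.42, edgeR adjusted p = 0.014) and the latter not (0.86 ± 0.46, edgeR adjusted p = 0.1), and neither of ZNF529 and ZNF382 was called.

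The response went with the level before treatment. Among the 232 tested members, Spearman's rho between the log2 of the untreated CPM + 0.5 and the log2 fold change at 1 µM was −0.739, and it was −0.719 over 15640 tested protein-coding genes. The points share the untreated libraries on both axes, so this is a description. Number of fingers (0.07), CpG count of the promoter (−0.09, 208 members), exon overlap (0.01) and share of repeated sequence (−0.01) ran nearly flat with the change. Split by the mean over all libraries, the 29 tested of 43 members under 1 CPM counted 21 higher and 0 lower at 1 µM, the 115 members from 1 to 10 CPM 44 higher and 15 lower, and the 88 members over 10 CPM 13 higher and 41 lower. The medians were 2.86, 0.48 and −0.41. Those under 1 CPM had to pass a filter on counts, which favours genes that are high in some group. All tested protein-coding genes had medians of 2.86, 1.54 and −0.40 in the same ranges. The members' median was thus below that of protein-coding genes in the middle range and near it in the others.

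**Figure D4:**
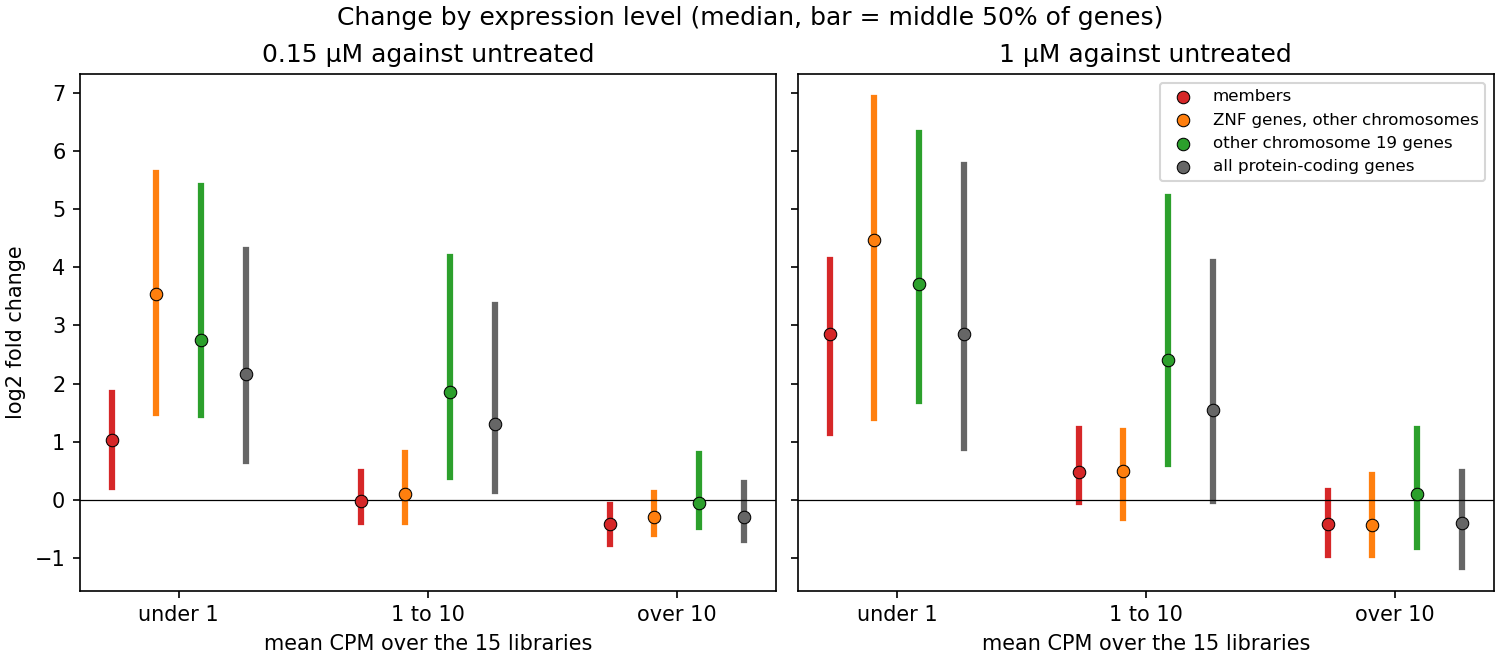
Log2 fold change at 0.15 and 1 µM against untreated cells by range of mean CPM over the 15 libraries, as the median (point) and the middle 50% of genes (bar), for the members and the gene lists compared. At 1 µM members have medians of 2.86, 0.48 and −0.41 from the lowest to the highest range, and all protein-coding genes 2.86, 1.54 and −0.40.

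ZNF genes of other chromosomes had the members' median at low dose and a lower one at high dose. Among the 241 tested, calls at 0.15 µM split 47 to 65 (higher to lower), with a median 0.41 below that of all tested genes. At 1 µM they split 81 to 92, with a median 0.32 below it. From 0.15 to 1 µM they split 70 to 52. In the range of 1 to 10 CPM their median at 1 µM was 0.50, close to the members' 0.48. The other protein-coding genes of chromosome 19 were mostly higher at 1 µM (527 higher and 235 lower of 1012), and those lying inside the clusters split 110 to 34 (of 186), with a median 1.25 above that of all tested genes. The difference between these genes and the members was not tested.

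Members with and without a KRAB box were counted apart. Of 199 tested members with the box, 72 were higher and 19 lower at 1 µM than at 0.15 µM, and of 33 without it 5 were higher and 10 lower, with medians of 0.44 and −0.12. The shares were 36.2% higher and 9.55% lower with the box and 15.2% and 30.3% without it, against 21.5% and 23.1% of all tested genes. The difference itself was not tested. Against untreated cells, members with the box split 28 to 54 at 0.15 µM and 69 to 47 at 1 µM, and those without it 6 to 7 and 9 to 9. At 1 µM 34.7% were higher and 23.6% lower with the box and 27.3% each way without it, against 38.8% and 27.5% of all tested genes. Counting only the 155 tested members with at most 10% of exon bases under other genes and under 10% repeated sequence, 52 were higher and 40 lower at 1 µM.

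Among corepressor and heterochromatin genes, which include partners of KRAB proteins, more fell than rose. In a list of 24 corepressor and heterochromatin genes, 13 were lower and 0 higher at 0.15 µM, and 16 lower and 2 higher at the highest dose, with a median 1.01 below that of all tested genes. Of all tested genes 19.4% were lower and 31.9% higher at 0.15 µM, and 27.5% and 38.8% at 1 µM. All 24 genes of the list averaged over 10 CPM. Of protein-coding genes at that level 49.1% were lower at 1 µM, with a median of −0.40 against −0.69 in the list. With library totals 4 of the list were lower and 0 higher at 0.15 µM, and 11 lower and 4 higher at 1 µM. TRIM28 measured 1500, 1411 and 1523 CPM untreated and 876, 949 and 836 CPM at 1 µM (−0.74 ± 0.28, edgeR adjusted p = 0.03), and the third replicates at 0.25 and 0.5 µM, at 375 and 421 CPM, were below their partners at 745 to 1046 CPM. SETDB1 measured 44.9, 55.9 and 53.9 CPM untreated and 36.1, 34.0 and 39.7 CPM at 1 µM (−0.49 ± 0.14, edgeR adjusted p = 0.0049). The calls of TRIM28 (−0.38) and SETDB1 (−0.14) were lost with library totals, and that of TRIM28 was also lost without any of the untreated or 1 µM libraries (−0.79 to −0.70). CHD3, a remodeller of the HDAC-containing complex that TRIM28 recruits, fell furthest, from 185, 187 and 208 CPM to 27.9, 27.3 and 32.4 CPM (−2.73 ± 0.18, edgeR adjusted p = 1.5e-10). CBX3, a heterochromatin protein, fell by 1.92 on the log2 scale and HDAC2 by 1.70. Of the same families, CBX1 (0.03), CBX5 (−0.18) and HDAC1 (0.36) were not called at 1 µM. CHD4, of the family of CHD3, was called higher (0.42), with 53% of its exon bases under exons of other genes. MPHOSPH8, part of a complex that silences retrotransposons together with SETDB1, was the highest of the list (0.49 ± 0.19, edgeR adjusted p = 0.03), a call lost without any of the untreated libraries or 1 µM replicate 2 or 3 (0.43 to 0.53).

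Among members with roles known from other work, 2 more were measured without a call at 0.15 or 1 µM. ZNF224, a repressor that works with the WT1 protein, went from 5.04 ± 0.96 to 5.83 ± 0.65 CPM at 1 µM (SD, n = 3, 0.21 ± 0.33, edgeR adjusted p = 0.59), with 42% of its exon bases under exons on the opposite strand. ZNF382, a KRAB repressor, went from 3.75 ± 0.79 to 2.85 ± 0.49 CPM (−0.40 ± 0.31, edgeR adjusted p = 0.27). The 14 members that could not be tested had 15 to 93 counts in all 15 libraries together. Of these, ZNF729, ZNF682, ZNF99, ZNF610 and ZNF135 had 0 counts in untreated cells.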

How the data were processed

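Poly(A) RNA of 15 K562 cultures was sequenced with a strand-keeping kit. According to the submitters' processing notes and the study's methods, the authors trimmed reads with Trim Galore 0.6.10 and Trimmomatic, aligned them to hg38 with HISAT2 2.2.1, used SAMtools 1.21, and counted fragments per gene of GENCODE release 38 with featureCounts 1.5.3. Whether featureCounts used strand is not given in the sources used here, so fragments of genes that overlap on opposite strands may not be told apart. The deposited table holds raw counts of 60649 genes, and 0 of its count columns lacked a sample. Deposited FPKM tables were not used.

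Symbols and positions of 60463 genes came from GENCODE release 44. Counts were analysed in R 4.3.3 with edgeR 4.0.16 (filterByExpr, TMM, robust quasi-likelihood fit of all 15 libraries with group as the single term). SE is the absolute log2 fold change over the root of F. The fit had 10 residual degrees of freedom and a common dispersion of 0.0520. DESeq2 1.42.0, other scalings and filters, and fits without single libraries were alternatives. Libraries of a group all differed beyond counting noise (chi-square over its degrees of freedom at least 6.49). Same-numbered libraries varied together between 0.25 and 0.5 µM (r of their deviations from the group means 0.266, 0.268 and 0.579) and between no other groups (r up to 0.0918). The second library at 0.25 µM and the first at 0.5 µM also varied together (r 0.236), so only the third libraries stood out as a pair. The numbers were therefore not taken to pair all groups. KRAB boxes were found with a profile built from the members themselves (pyhmmer 0.12.3, E under 0.01). Intervals cover counting error only. Floors (3 counts over a group) cover that of the untreated libraries only, with the treated mean taken as measured.

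Named members were chosen by rule: of each cluster the most abundant member and, from a mean of 1 CPM, those with the highest and lowest log2 fold change at 1 µM, the 5 highest and 5 lowest called members with a mean of at least 2 CPM and no overlap of libraries, members called in opposite directions, the largest change of a single dose step, and 11 members with a known role. Of the corepressor list, TRIM28, SETDB1 and the extremes were named by rule. CBX3, HDAC2 and the genes of the same families were named outside it. The members, lists and rules were chosen with earlier results of these data known. The test was checked on simulated counts in which few genes changed, at 1 µM only and with a single spread. That check does not cover the scaling.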

Additional observations from a re-analysis of the deposited data

How the results depend on the processing

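Scaling moved the split of the calls. With library totals, the counts beyond 1.5 times those reported were 54 higher and 16 lower members at 0.15 µM, 102 and 20 at 0.25 µM, 33 lower at 0.5 µM and 33 lower at 1 µM. When TMM used only genes averaging 10 CPM or more, 30 members were lower at each of the first 2 doses, 131 higher and 32 lower at 0.5 µM, and 123 higher and 35 lower at 1 µM. Against untreated cells, the summed level of the members was 45.3, 273, 207 and 108 CPM higher going up the doses with library totals (chosen after seeing the data). The step from 0.15 to 0.25 µM gave 21 calls with DESeq2's size factors and with that TMM, 19 with no filter and without the third replicates at 0.25 and 0.5 µM (an alternative chosen after seeing the data), 22 with at least 10 counts in every library, 4 with the 2 groups alone, 36 by DESeq2, and 4 to 30 without single libraries. The step from 0.25 to 0.5 µM gave 27 with the 2 groups alone. At least 10 counts in every library left 41 members lower at 0.25 µM, and members with at most 10% exon overlap counted 18 lower from 0.15 to 1 µM.

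Relative to all tested genes, medians at 1 µM moved with the genes kept. With at least 10 counts in every library they were 0.33 (members), 0.65 (A), 0.074 (B), 0.59 (C), 0.14 (D), −0.17 (E), 0.17 (G) and 0.38 (H). With the 2 groups alone they were 0.083 (members), 0.26 (A), −0.30 (B), 0.47 (C), −0.15 (D), 0.67 (F) and −0.0011 (H). With no filter D stood at −0.073, F at 0.36 and H at −0.22, and with at most 10% exon overlap A at 0.59, F at 0.43 and G at −0.37. Ending clusters at 2 Mb gave 0.43 for F. The cause was not tested beyond the genes each setting keeps. Without single libraries the members ran from −0.14 to −0.038, A from −0.066 to 0.21, B from −0.53 to −0.42, C from 0.077 to 0.41, E from −0.093 to 0.26, F from 0.34 to 0.59 and H from −0.21 to −0.16.

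The sign turned for the log2 fold change of ZNF431 at 1 uM, not called in any of these settings, which was 0.054 with DESeq2's size factors and by DESeq2, 0.35 with library totals, 0.37 with TMM from genes averaging 10 CPM or more, 0.27 with at least 10 counts, 0.057 with the 2 groups alone, 0.039 without the third replicates at 0.25 and 0.5 µM, and −0.0586 to 0.042 without single libraries (above 0 in 5 of these fits). It also turned for ZNF574, not called there, at 0.023 with library totals and 0.050 with TMM from genes averaging 10 CPM or more. Same-numbered replicates went together only between 0.25 and 0.5 µM, with the largest r in the third ones. With a replicate block that step held 52 member calls instead of 56 and the step from 0.15 to 0.25 µM 14 instead of 11, and no named call at 1 µM changed. Depth limits the members of few counts, of which 66 lay under 1 CPM in untreated cells.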
